A study of Mus musculus with 6 samples.

Results

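The genes described here are 10 transcription factors of the diencephalon and hypothalamus, Dbx1, Nkx2-2, Nkx2-4, Rax, Hmx2, Hmx3, Sim1, Otp, Irx3 and Barhl2, out of 19938 genes measured. They were taken by gene symbol, and each was represented by 1 probe set, the only one the platform annotation gives it. RNA came from mouse embryonic stem cells of a 129SVEV line with a CTIP2:GFP knock-in, in which GFP follows the coding sequence of Bcl11b, the gene of the deep-layer neuron factor CTIP2, and the Neo selection cassette is still present. All cultures were grown as floating aggregates by the SFEBq method with a WNT inhibitor and a TGF-beta receptor inhibitor in the early phase, and cells were sorted into CTIP2:GFP+ and CTIP2:GFP- fractions on day 11, day 12 and day 13 of differentiation. Each fraction had 3 arrays, 1 for each day, so the spread within a fraction is a spread between days. The GFP- fraction is everything the gate left out, and the sources used here do not say whether the line is 1 clone.

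The diencephalon forms behind the telencephalon and gives rise to the thalamus, the prethalamus and, with the most anterior part of the forebrain, the hypothalamus. Homeodomain proteins divide this territory: they are DNA-binding transcription factors that are switched on in strips of progenitors or in the neurons born from them, and their combinations set which neuron is made. All of the 10 genes but Sim1 encode homeodomain proteins, and Sim1 encodes a bHLH-PAS factor. Dbx1, Nkx2-2, Rax and Irx3 are known mainly from progenitors, and Otp, Sim1, Hmx2, Hmx3 and Barhl2 from differentiating neurons, while Nkx2-4 is known from the ventral hypothalamus. Several of them also act elsewhere, as Dbx1, Nkx2-2 and Irx3 do in the hindbrain and spinal cord.

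The start regions of 4 genes are shown because the results turn on them: Dbx1 and Otp lay lower on every GFP+ array than on any GFP- array, and Nkx2-4 and Hmx3 had their highest signal on 1 GFP- array. Each is the 250 bases before the annotated start in RefSeq on GRCm38.p6, written 5′ to 3′ on the strand of the gene, at chr7:49636836-49637085 on the minus strand for Dbx1, chr13:94875386-94875635 on the plus strand for Otp, chr2:147085346-147085595 on the minus strand for Nkx2-4 and chr7:131542713-131542962 on the plus strand for Hmx3. Capitals mark TATAAA (the TATA box), CCAAT (the CAAT box) and GGGCGG (the GC box) on either strand, with overlapping matches run together.
Dbx1: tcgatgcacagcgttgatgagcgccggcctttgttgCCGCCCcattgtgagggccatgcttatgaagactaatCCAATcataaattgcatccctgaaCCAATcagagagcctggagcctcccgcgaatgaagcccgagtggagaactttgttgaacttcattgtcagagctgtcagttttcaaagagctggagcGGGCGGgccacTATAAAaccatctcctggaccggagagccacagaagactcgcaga
Otp: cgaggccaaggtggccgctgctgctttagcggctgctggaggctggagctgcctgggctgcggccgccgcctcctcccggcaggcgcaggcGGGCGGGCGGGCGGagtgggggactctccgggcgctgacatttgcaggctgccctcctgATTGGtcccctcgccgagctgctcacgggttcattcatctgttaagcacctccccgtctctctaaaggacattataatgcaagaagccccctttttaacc
Nkx2-4: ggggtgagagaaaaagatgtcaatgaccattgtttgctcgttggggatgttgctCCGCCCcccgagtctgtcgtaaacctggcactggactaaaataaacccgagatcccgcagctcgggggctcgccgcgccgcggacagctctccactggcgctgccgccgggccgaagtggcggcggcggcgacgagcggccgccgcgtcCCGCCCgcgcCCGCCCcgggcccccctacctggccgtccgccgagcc
Hmx3: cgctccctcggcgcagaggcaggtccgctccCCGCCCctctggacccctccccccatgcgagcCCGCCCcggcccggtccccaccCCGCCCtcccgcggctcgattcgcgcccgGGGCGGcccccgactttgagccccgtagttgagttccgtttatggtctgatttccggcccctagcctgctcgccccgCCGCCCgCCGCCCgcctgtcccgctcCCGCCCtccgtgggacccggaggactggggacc
In these 4 windows, the TATA box was present in that of Dbx1, where it starts 45 bases before the annotated start, and the CAAT box in those of Dbx1 and Otp. All 4 windows held the GC box. Windows were found for 9 of the 10 genes, 10 windows in all because Hmx2 has a pair of annotated starts. Of these 10 windows 3 held a TATA box, against 12.4% of 32851 windows of the same length, 3 held a CAAT box, against 33.8%, and 7 held a GC box, against 32.7%. The share of G and C was 52.8% for Dbx1, 65.2% for Otp, 70.4% for Nkx2-4 and 76.8% for Hmx3, with a median of 52.4% over all windows. Letters that these protein classes are known to bind were also searched on both strands: TAATTA, bound by many homeodomains, was in 0 of the 10 windows, against 4.84% of all windows. For Irx factors ACATGT was searched and was in 0, against 4.58%. For Nkx2 and Hmx factors CAAGTG was searched, and for Sim factors ACGTG, and each was in 1 window, that of Nkx2-2, against 11.6% and 16.6% of all windows.

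Of the 6 arrays, that of GFP- cells on day 13 was the odd one out. Its standard deviation over probe sets was 1.11 against 1.29 to 1.48 on the others, and its correlation with them across probe sets was 0.863 to 0.927. Array medians ran from 5.32 to 5.52 on the log2 scale. The table has no detection call, so whether a gene with a signal near the median was expressed cannot be said. A probe set's signal also depends on its sequence, so signals are compared between arrays and not between genes. In this and later values by day the order is day 11, day 12 and day 13. Bcl11b, the gene that carries GFP, measured 8.76, 7.91 and 8.54 in GFP+ cells and 6.44, 6.27 and 6.88 in GFP- cells, with no overlap. Of 16 neuronal markers, 4 were higher and 0 lower in GFP+ cells at an adjusted p under 0.05 from limma, and of 16 neural progenitor markers 7 were lower and 0 higher. All of these marker calls were lost without day 13 and after median centring of each array. Without day 13 their adjusted p lay between 0.052 and 0.071 from limma.

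The 10 genes were chosen on their GFP+ and GFP- values, and Dbx1 was known to have one of the largest differences, so the differences between the fractions are given as a description with no test. Averaged over the 3 days, GFP+ minus GFP- was below 0 for all 10 genes, which held for 59% of the 19938 genes. It was above 0 for 1 of them, Hmx2 (0.04), without the day 13 arrays, and for 3, Hmx2 (0.08), Hmx3 (0.02) and Nkx2-4 (0.0007), with no replicate block and without the day 13 GFP- array. It was over 2-fold for 1 of them, Dbx1, against 1.02% of all genes. The signal was lower in GFP+ cells on all 3 days for 6 genes (21.4% of all genes), and for 3 genes, Dbx1, Otp and Irx3, every GFP- array lay above every GFP+ array (7.85% of all genes). The median difference of the 10 genes was -0.35, beside -0.05 for all genes, and by day it was -0.17, -0.15 and -0.86. In RNA of a whole fraction, fewer cells of a type and less RNA per cell cannot be told apart.

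**Figure D1:**
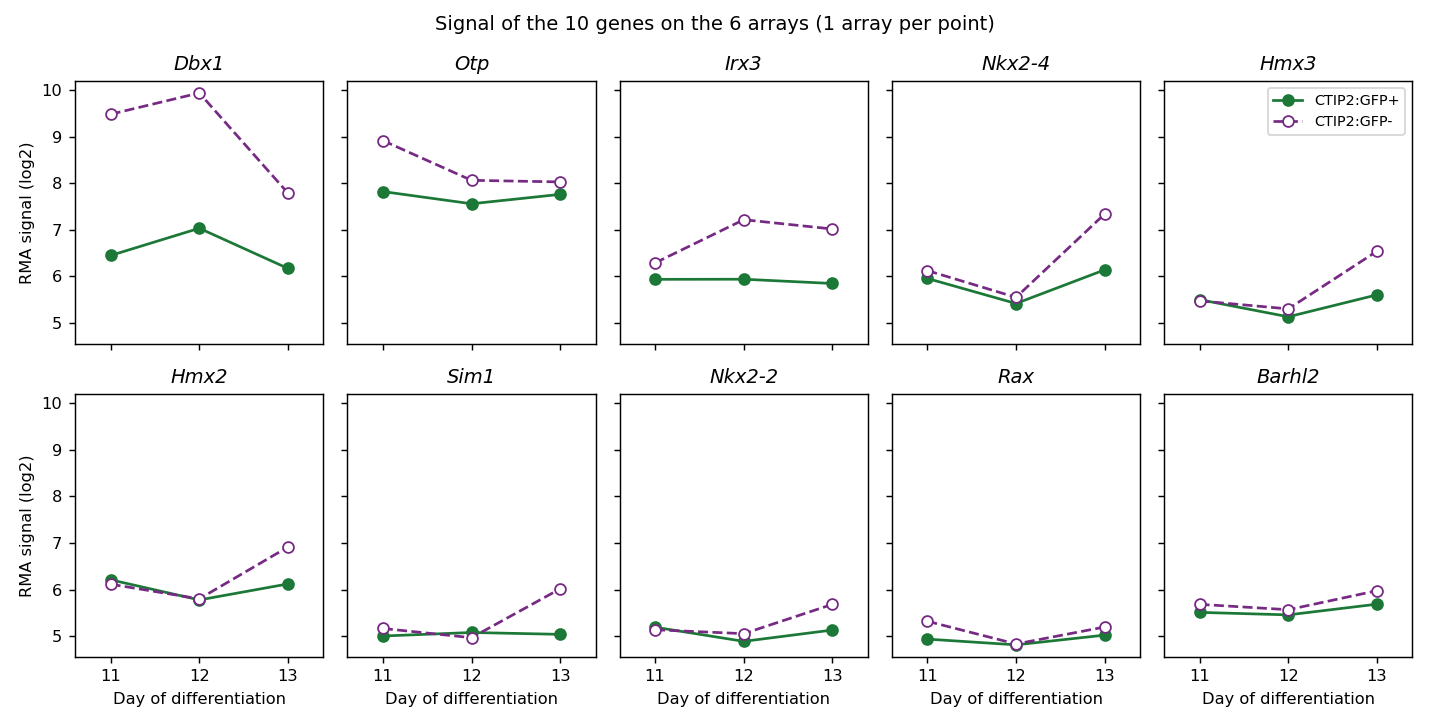
RMA signal (y axis, log2) of the 10 genes on day 11, day 12 and day 13 (x axis), with filled points for CTIP2:GFP+ and open points for CTIP2:GFP- arrays, 1 array per point and no error bars. Dbx1, Otp and Irx3 have every open point above every filled point, and Nkx2-4, Hmx3, Hmx2 and Sim1 have their highest point on the day 13 GFP- array.

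Dbx1 had the largest difference of the 10. It encodes a homeodomain factor of progenitors in the diencephalon, in a few places of the telencephalon's border, and in the hindbrain and spinal cord. It measured 6.45, 7.03 and 6.17 in GFP+ cells and 9.48, 9.94 and 7.79 in GFP- cells. The fractions did not overlap, and the lowest GFP- array lay 0.75 above the highest GFP+ array. GFP+ cells averaged 6.55 ± 0.44 (SD, n = 3) against 9.07 ± 1.13 (SD, n = 3) for GFP- cells, a 5.72-fold lower level in GFP+ cells. Day by day the fold was 8.16, 7.47 and 3.06. The smaller value of day 13 went with the GFP- array of that day, where Dbx1 was 2.15 below the higher of the other 2 GFP- arrays, while the 3 GFP+ arrays ranged over 0.86. By rank, the probe set stood at percentile 98.3, 98.5 and 94.7 of all probe sets on the GFP- arrays and at 73.4, 80.5 and 68.4 on the GFP+ arrays.

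Dbx1 was the only one of the 10 with a range of 2 or more over the 6 arrays on the log2 scale (3.76), and Nkx2-4 came next with 1.92. Among the 649 genes with such a range, the 3 with the pattern most like Dbx1 over the 6 arrays were Cyp26b1, an enzyme that degrades retinoic acid (Pearson r = 0.993), Cdkn1c, an inhibitor of the cell cycle (0.989), and Ndnf, a secreted protein of neurons (0.975). Cyp26b1 measured 5.74, 6.22 and 5.87 in GFP+ cells and 7.73, 7.82 and 6.71 in GFP- cells. Like Dbx1, it was highest in the GFP- cells of the first 2 days. These correlations are over 6 arrays that share days and fractions, and they describe likeness only.

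Otp, a homeodomain factor of neuroendocrine and other hypothalamic neurons, had a smaller difference that narrowed over the days on the log2 scale. It measured 7.82, 7.56 and 7.76 in GFP+ cells and 8.91, 8.06 and 8.03 in GFP- cells. The fractions did not overlap, but the lowest GFP- array lay only 0.21 above the highest GFP+ array. GFP+ cells averaged 7.71 ± 0.14 (SD, n = 3) against 8.33 ± 0.50 (SD, n = 3) for GFP- cells, a 1.54-fold lower level in GFP+ cells. By day the difference was -1.09, -0.50 and -0.27. The GFP+ arrays ranged over 0.26 and the GFP- arrays over 0.89, so most of the narrowing lay in the GFP- values. By rank, the Otp probe set stood at percentile 97.06, 90.86 and 95.73 on the GFP- arrays and at 90.75, 86.89 and 90.34 on the GFP+ arrays. The gap in rank was smallest on day 12 and wider again on day 13, so the ranks do not show a steady narrowing.

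Irx3, an Iroquois homeodomain factor of neural progenitors behind the telencephalon, was the third gene without overlap. It measured 5.94, 5.94 and 5.85 in GFP+ cells and 6.29, 7.22 and 7.02 in GFP- cells. The GFP+ arrays ranged over 0.09 only, and among GFP- cells day 11 gave the lowest value. GFP+ cells averaged 5.91 ± 0.05 (SD, n = 3) against 6.84 ± 0.49 (SD, n = 3) for GFP- cells, a 1.91-fold lower level in GFP+ cells, and the difference by day was -0.35, -1.28 and -1.17.

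A set of 4 genes, Nkx2-4, Hmx3, Hmx2 and Sim1, was set apart by the day 13 GFP- array. Each was over 0.5 higher there on the log2 scale than on any of the other 5 arrays, which held for 6.71% of all genes. Their differences between the fractions on day 11 and day 12 lay between -0.17 and 0.11. Nkx2-4, an Nkx2 homeodomain factor of the ventral hypothalamus, measured 5.96, 5.42 and 6.14 in GFP+ cells and 6.13, 5.55 and 7.34 in GFP- cells. Apart from that 7.34, the fractions were nearly level on each day. The day 13 GFP- array lay 1.20 above the highest other array, which is 2.30-fold.

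Hmx3 and Hmx2 encode a related pair of homeodomain factors of the hypothalamus and inner ear, and their genes are neighbours on chromosome 7. Hmx3 measured 5.50, 5.14 and 5.61 in GFP+ cells and 5.48, 5.31 and 6.54 in GFP- cells. Hmx2 measured 6.21, 5.78 and 6.12 in GFP+ cells and 6.11, 5.80 and 6.91 in GFP- cells. In both genes the day 13 GFP- array stood alone, by 0.94 for Hmx3 and 0.70 for Hmx2, and each fraction had its lowest signal on day 12. That low on day 12 was not particular to the pair, since Nkx2-4, Rax and Barhl2, among others, had it in both fractions. The day 12 array also had the lowest array median of each fraction, 5.34 for GFP+ and 5.32 for GFP- cells. The part of the arrays in this low was not tested. Sim1, the bHLH-PAS factor that hypothalamic neurosecretory neurons need, measured 5.0, 5.08 and 5.04 in GFP+ cells and 5.16, 4.97 and 6.02 in GFP- cells. Its GFP+ arrays ranged over 0.08 and the day 13 GFP- array lay 0.85 above the highest other array. Among all probe sets of that array, those of Nkx2-4, Hmx2, Hmx3 and Sim1 stood at percentile 91.8, 87.2, 81.2 and 67.9, above their highest percentile on any other array (68.4, 68.9, 56.5 and 42.0).

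**Figure D2:**
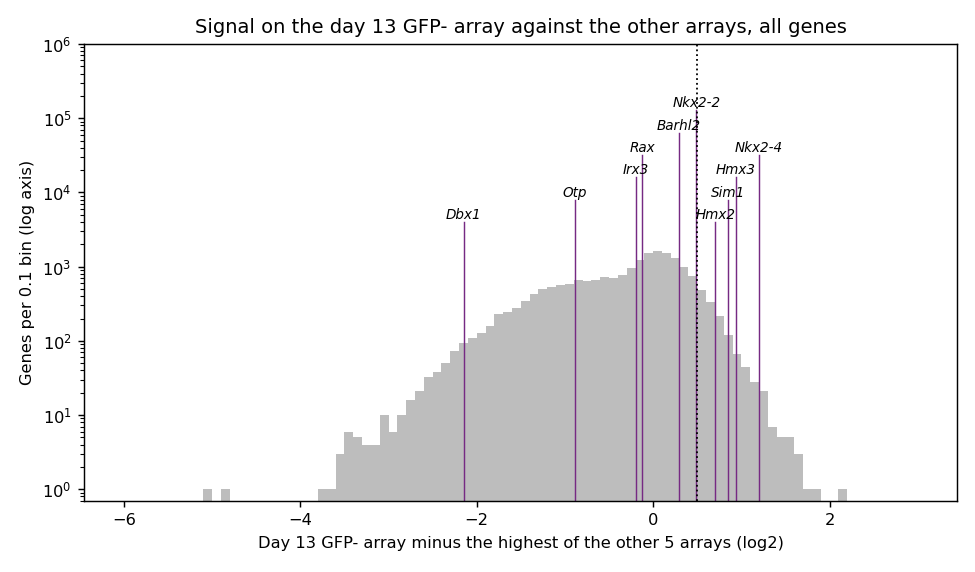
Signal on the day 13 GFP- array minus the highest of the other 5 arrays (x axis, log2) for all 19938 genes (grey bars, y axis: genes per bin, log axis), with the 10 genes as labelled lines. The dotted line is at 0.5, with 6.71% of all genes to its right, and Hmx2 (0.70), Sim1 (0.85), Hmx3 (0.94) and Nkx2-4 (1.20) lie beyond it, Nkx2-2 (0.49) just short of it and Dbx1 (-2.15) far to its left.

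Nkx2-2, Rax and Barhl2 showed the least. Nkx2-2, a homeodomain factor of ventral progenitors under Hedgehog signalling, measured 5.19, 4.89 and 5.13 in GFP+ cells and 5.14, 5.05 and 5.68 in GFP- cells. Its day 13 GFP- array lay 0.49 above the highest other array, just short of the 0.5 used above, and the fractions overlapped. Rax, needed for the eye field and the hypothalamus, measured 4.94, 4.81 and 5.02 in GFP+ cells and 5.32, 4.83 and 5.20 in GFP- cells, a range of 0.51 over all 6. Barhl2, a homeodomain factor of the thalamus, hypothalamus and retina, measured 5.51, 5.46 and 5.69 in GFP+ cells and 5.68, 5.57 and 5.97 in GFP- cells, a range of 0.52. The mean difference was -0.22, -0.19 and -0.19 for Nkx2-2, Rax and Barhl2, and the fractions overlapped for all 3 genes.

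**Figure D3:**
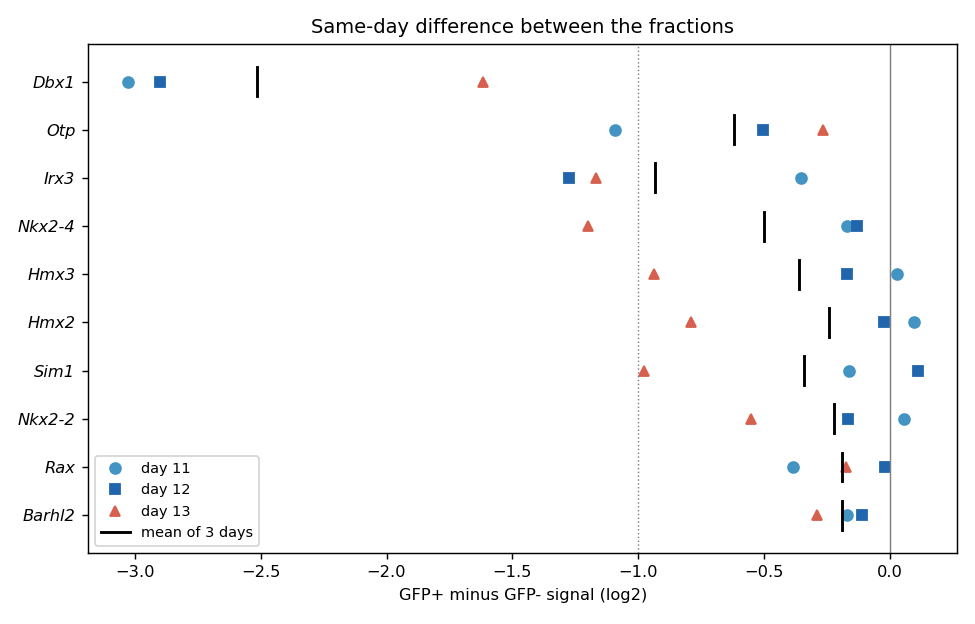
GFP+ minus GFP- signal (x axis, log2) of each gene (y axis) on day 11, day 12 and day 13 (points), with the mean of the 3 days as a black bar and a dotted line at 2-fold lower. Dbx1 lies between -3.03 and -1.62 on all 3 days, and the points of Nkx2-4, Hmx3, Hmx2 and Sim1 for day 13 (-1.20, -0.94, -0.79 and -0.98) lie apart from those of day 11 and day 12.

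The course over the days was tested as the slope of the signal per day over both fractions. The genes were chosen on the difference between the fractions, but with earlier results of these data known, so the choice may not be independent of the days. Of 19938 genes 0 rose and 0 fell at an adjusted p under 0.05 from limma (0% each), and 174 had an unadjusted p under 0.05, none of the 10 among them. The 174 are fewer than the share of 0.05 that would be met with no slope in any gene. The lack of calls therefore says little about the course of the 10 genes. The slopes of the 10 genes ran from -0.49 per day for Dbx1 (standard error 0.29) to 0.35 for Nkx2-4 (standard error 0.25), with an adjusted p of 0.997 for each from limma. Without day 11, the slope of Dbx1 was -1.51 with an adjusted p of 0.024 from limma, and those of the other 9 genes did not pass in any alternative that held them. Without the day 13 GFP- array it was -0.02, and on the GFP+ arrays alone -0.14.

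Other genes of the same families and territories were listed to set the 10 beside. Of 14 close relatives, 0 were higher or lower past the test of the fractions (0.797% and 0.567% of all genes were), with a median difference of -0.25. Among them Nkx2-1, the ventral forebrain factor, had a difference of 0.78 (adjusted p = 0.112 from limma), opposite in sign to Nkx2-2 and Nkx2-4. With no replicate block and without the day 13 GFP- array, Nkx2-2 and Nkx2-4 had differences of only -0.02 and 0.0007. Irx2 had a difference of -0.54 (adjusted p = 0.471), and Irx5, named here after its values were seen because it belongs to the same gene cluster as Irx3, -1.11 (adjusted p = 0.057). Irx5 measured 5.75, 6.55 and 5.50 in GFP+ cells and 7.26, 7.38 and 6.49 in GFP- cells. On each day it lay lower in GFP+ cells, as Irx3 did, with an overlap between the fractions of different days. Irx6, of the same cluster, had the opposite sign, with a difference of 0.14 (adjusted p = 0.771 from limma; 0.25, 0.52 and -0.34 by day).

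Of 18 hypothalamic and preoptic regulators 0 passed the test, and the median difference was -0.29. Pou3f2, a POU factor that acts downstream of Sim1 and Otp in neuroendocrine neurons, had a difference of -0.99 (adjusted p = 0.088 from limma), and Arnt2, the dimerisation partner of Sim1, 0.87 (adjusted p = 0.080). Arnt2 measured 9.42, 9.37 and 9.28 in GFP+ cells and 8.63, 8.75 and 8.07 in GFP- cells, so every GFP+ array lay above every GFP- array. Its sign was the opposite of that of the mean of Sim1, whose differences by day were -0.16, 0.11 and -0.98. Of 13 hypothalamic peptide genes 0 passed the test, with a median difference of -0.10 and signals from 4.41 to 6.89 over all arrays. Among them Oxt, which encodes oxytocin, had a difference of 0.16 (adjusted p = 0.665) and Kiss1, which encodes kisspeptin, -0.37 (adjusted p = 0.578).

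Among 18 thalamic and prethalamic regulators the test called 1 lower in GFP+ cells and 0 higher, leaving 17, and the median difference was -0.45. The 1 was Tcf7l2, a WNT pathway factor of the thalamus, with 5.83, 5.78 and 6.02 in GFP+ and 6.76, 6.90 and 7.01 in GFP- cells (a difference of -1.01 ± 0.14 (standard error), with an adjusted p of 0.041 from limma). The fractions did not overlap. Lhx1, a LIM homeodomain factor, had a difference of -0.92 (adjusted p = 0.227). Of 12 genes of the floor plate and ventral progenitors, 2 were lower and 0 higher, with a median of -0.51. These were Ntn1, which encodes the guidance protein netrin (-1.54, standard error 0.17, adjusted p = 0.028 from limma), and Spon1, which encodes a spondin of the floor plate (-1.33, standard error 0.16, adjusted p = 0.032). Ptch1, the Hedgehog receptor, had a difference of -1.30 (adjusted p = 0.077) and Olig2 -0.01 (adjusted p = 0.976). The calls of Tcf7l2, Ntn1 and Spon1 were lost without day 13 and after median centring, that of Tcf7l2 also without day 11 and after a further quantile normalization, and that of Spon1 also with no replicate block, with or without the day 13 GFP- array. Without day 13 their differences were -1.03, -1.71 and -1.47, with an adjusted p of 0.064, 0.052 and 0.052 from limma.

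Among 18 midbrain and hindbrain regulators it called 1 lower and 0 higher, leaving 17, with a median of -0.18. The 1 was Pax7, a factor of dorsal progenitors (-1.43, standard error 0.16, adjusted p = 0.029 from limma), whose call was lost without day 13 and after median centring. Without day 13 its difference was -1.47 (adjusted p = 0.061 from limma). Pax2 had a difference of -0.52 (adjusted p = 0.322) and Pax8 0.24 (adjusted p = 0.665). Of 11 genes of the retina and pigment epithelium 0 passed, with a median of -0.19, among them Atoh7 (-0.37, adjusted p = 0.452) and Vax2 (-0.05, adjusted p = 0.884). Among 11 telencephalic regulators it called 2 higher and 0 lower, leaving 9. The 2 were Dlx1 (3.22, adjusted p = 0.022 from limma) and Dlx2 (2.49, adjusted p = 0.024) of the ventral telencephalon. Both calls were lost without day 13 and after median centring, and that of Dlx2 also after a further quantile normalization and with no replicate block, with or without the day 13 GFP- array. Without day 13 the difference was 3.16 for Dlx1 and 2.70 for Dlx2, each with an adjusted p of 0.052 from limma. Of the cortical factors in the list, Emx1 had a difference of -0.26 (adjusted p = 0.723; 0.14, 0.24 and -1.15 by day) and Lhx2 of -0.07 (adjusted p = 0.913). Others are named after their values were seen. Tbr1 had a difference of 0.74 (adjusted p = 0.388; 0.05, 1.78 and 0.38 by day) and Neurod6 of 0.53 (adjusted p = 0.421; -0.08, 1.21 and 0.45 by day). Emx2 (-0.46, adjusted p = 0.421), Fezf2 (-0.31, adjusted p = 0.568) and Eomes (-0.23, adjusted p = 0.670) went the other way.

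**Figure D4:**
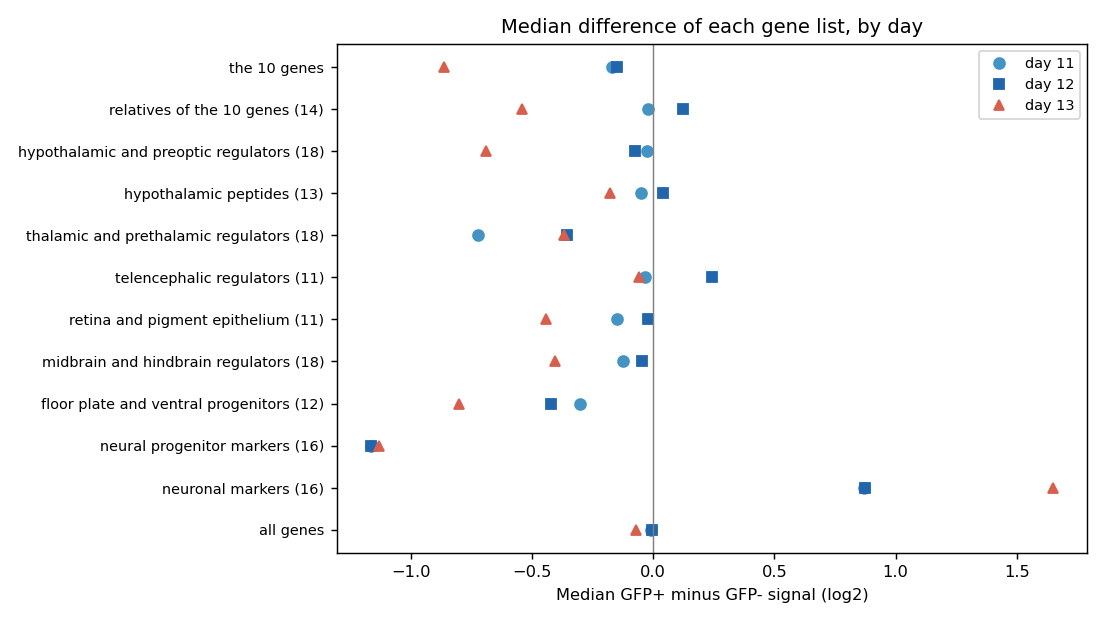
Median GFP+ minus GFP- signal (x axis, log2) of the 10 genes, of 10 lists of other genes (with the number measured) and of all genes (y axis) on day 11, day 12 and day 13 (points). The 10 genes lie at -0.17, -0.15 and -0.86, the hypothalamic and preoptic regulators at -0.03, -0.07 and -0.69, and the neural progenitor markers at -1.16, -1.16 and -1.13.

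Of the 16 progenitor markers 7 were lower in GFP+ cells past the test, which was over all days and not by day, and with no replicate block 3 were. Their median difference was -1.16, -1.16 and -1.13 by day, and the 7 genes past the test included Slc1a3, the glial glutamate transporter (-2.72, adjusted p = 0.024 from limma), Notch1 (-1.89, adjusted p = 0.024), Ccnd1, cyclin D1 (-1.81, adjusted p = 0.025), and Nes, nestin (-1.52, adjusted p = 0.025). Sox1, named after its values were seen, had differences of 1.13, -0.73 and -0.23 by day. Sox2 had a difference of -0.54 (adjusted p = 0.385) and Fabp7 -0.68 (adjusted p = 0.292). The linear signal summed over the 16 markers was 5712 to 10142 on the GFP+ arrays and 12311 to 16032 on the GFP- arrays. Fabp7 and Vim had the highest signals of the list on every array and weigh most in this sum. On day 12 Fabp7 was 0.06 higher in GFP+ cells on the log2 scale. The neuronal markers had a summed signal of 12847 to 16378 on the GFP+ arrays and 3981 to 8368 on the GFP- arrays, the lowest on day 13. The 4 neuronal markers past the test were Syt1 (2.34, adjusted p = 0.028 from limma), Myt1l (1.94, adjusted p = 0.024), Mapt (1.40, adjusted p = 0.025) and Map2 (0.92, adjusted p = 0.047), while Ina had a difference of 1.05 (adjusted p = 0.067) and Stmn2 1.19 (adjusted p = 0.074). The call of Map2 was also lost without day 11, with no replicate block, after quantile normalization and with a trended and robust eBayes. Those of Mapt and Nes were also lost after quantile normalization. Those of Slc1a3 and Ccnd1 were also lost with no replicate block, with or without the day 13 GFP- array. No marker was at 0, since the RMA signals have no 0. The part of progenitor and neuron content in the differences of Dbx1, Otp and Irx3 was not tested.

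The day 13 GFP- array held the highest of the 6 signals for 7554 of the 19938 genes (37.9%). Beside 4 of the 10 genes and 6.71% of all genes, 6 of 18 hypothalamic and preoptic regulators, 5 of 14 relatives, 3 of 13 hypothalamic peptide genes, 3 of 12 floor plate and ventral genes, 3 of 11 telencephalic regulators and 2 of 11 retinal genes were over 0.5 above the highest other array there. The count was 1 of 18 for the thalamic list, 1 of 18 for the midbrain and hindbrain list, 1 of 16 for progenitor markers and 0 of 16 for neuronal markers. These lists overlap: the 25 entries are 21 genes, and Six3, Six6, Nkx2-9 and Barhl1 are counted in 2 lists each. No test of enrichment was made, and genes known mainly from other tissues or regions, such as Nkx2-5, Foxa1 and Hoxb1, are among them. The genes with the largest such values in these lists, named after their values were seen, were Shh, the Hedgehog ligand (1.54), Vax1, a factor of the ventral forebrain and optic stalk (8.24 on that array and 6.74 on the next), Emx1 (1.15) and Six3, an anterior forebrain factor (1.02). Shh measured 6.02, 5.76 and 5.92 in GFP+ cells and 5.89, 5.78 and 7.56 in GFP- cells. Like Nkx2-4, it was nearly level between the fractions on day 11 and day 12. This rests on 1 array, and the part of that array's lower spread of signals, its neuronal marker sum of 3981 or its day in these values was not tested.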

How the data were processed

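Signals of probe sets on 6 GeneChip Mouse Gene 1.0 ST arrays were used, 1 array for each fraction and day. The deposited values are log2 signals that the authors calculated by RMA16 in GeneSpring. The sources used here give neither a genome build nor whether all arrays were normalized together. The platform annotation paired 21789 of 28853 probe sets with 1 gene symbol and 1621 with several, and left 5443 unnamed. Entrez IDs matched 21698 of the former to RefSeq genes of GRCm38.p6, and 0 symbols changed. For each of 19938 genes the probe set with the highest mean over the 6 arrays was used, and no dim probe set was removed. No depth applies to arrays, and their number limits the precision.

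Models were fitted in R 4.3.3 with limma 3.58.1, using fraction and day as factors (2 residual degrees of freedom), or with fraction and the slope per day (3 residual degrees of freedom). Adjusted p is Benjamini-Hochberg over all genes, with a threshold of 0.05. A difference is the mean of the same-day differences, GFP+ minus GFP-, in log2 units. The labels pair the fractions by day, and after subtraction of the fraction means, arrays of the same day had a correlation over genes of 0.11 (day 11), 0.56 (day 12) and 0.37 (day 13). The fits were tested on simulated data. The 10 genes and the lists were chosen with earlier results of these data known. Of each list, up to 4 genes past the test with the largest difference and the 2 brightest others are named. Of the genes listed, 8 were not analysed here. The alternatives were no replicate block, each day or the day 13 GFP- array left out, median centring, quantile normalization, the mean of probe sets, genes above the median signal and a trended and robust eBayes.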

Additional observations from a re-analysis of the deposited data

How the results depend on the processing

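Counts of genes past the test of the fractions depended on the processing, and the causes were not tested. Against 159 higher and 113 lower, there were 84 and 41 with no replicate block for the day, 787 and 359 among genes above the median signal, and 549 and 510 with a trended and robust eBayes. Median centring of each array left 0 and 0, and a further quantile normalization left 52 higher and 99 lower. With no replicate block and without the day 13 GFP- array there were 202 and 114, and with the mean of probe sets 171 and 125. Leaving out 1 day gave 381 higher and 171 lower (day 11), 930 and 229 (day 12), and 0 and 0 (day 13). For the slope per day, against 0 and 0, leaving out 1 day gave 0 to 20 rising and 0 to 110 falling, the latter of both without day 11. The median difference of the 10 genes ran from -0.51 to -0.05, the latter with no block and the day 13 GFP- array left out, and without both day 13 arrays it was -0.15. Of 70 differences of single genes under 7 alternatives, 69 moved by less than the SD of the daily differences, which itself includes day 13. The exception was Barhl2, at -0.07 with no replicate block and without the day 13 GFP- array. In that alternative Hmx2, Hmx3 and Nkx2-4 turned to above 0, and Hmx2 did so without day 13. The count of 69 does not measure stability, since many of the 70 could not move by more than that SD. Leaving out 1 of 3 days always shifts the mean by less than it. With 1 probe set per gene the mean of probe sets changed nothing, and median centring shifted all genes alike. Of 97 slopes under alternatives 1 passed the test, that of Dbx1 without day 11. Counts in the 10 lists of other genes differed by over 1.5 times in 50 of 200 cases. Without the day 13 arrays, an alternative added after seeing the data, 6 genes were lower in GFP+ cells on every day, and the fractions did not overlap for 4, Dbx1, Otp, Irx3 and Barhl2. The shares of all genes were not counted for this alternative. Both patterns are met more easily with fewer arrays, so these counts cannot be set against those over all days.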
